A study of Mus musculus with 16 samples.

Results

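The 10 genes described here (Axin2, Lgr5, Rnf43, Znrf3, Tbx3, Rspo3, Nkd1, Glul, Oat and Rhbg) are Wnt pathway components and Wnt-dependent genes of the hepatocytes that surround the central vein. They were taken by name from 25719 genes measured in whole liver, all 10 were found in the table, and all 10 passed the filter on low values. RNA was sequenced from 16 livers, 1 library per mouse. The mice were male C57BL6J wild types (WT) or Klrk1-/- mice, 8 to 12 weeks old, which were fed a normal chow diet (NCD) or a steatosis-steatohepatitis diet (SSD), rich in animal fat, fructose and cholesterol, for 3 weeks. Klrk1 encodes NKG2D, an activating receptor of NK cells and T cells, and the deletion is carried in the germline, so all cells of these mice lack it. There were 4 WT mice on NCD, 5 WT mice on SSD, 4 Klrk1-/- mice on NCD and 3 Klrk1-/- mice on SSD, and each group serves in 2 of the 4 comparisons between groups made here.

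In the liver lobule, Wnt ligands made by endothelial cells of the central vein act on the nearest hepatocytes through Frizzled receptors and stabilize beta-catenin. R-spondins bind Lgr receptors and remove the membrane ubiquitin ligases Rnf43 and Znrf3, which otherwise take Frizzled receptors off the cell surface. The pathway is known for holding the pericentral zone in place, where hepatocytes make glutamine from ammonium, and several of its targets, such as Axin2, Nkd1, Rnf43 and Znrf3, act back on the pathway as inhibitors.

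The values are normalized counts, that is reads per gene divided by a factor per sample, behind which lie 19892025 to 28936707 reads on genes per mouse. The members had between 56 (Lgr5) and 22473 (Glul) reads in a mouse, so none was near the floor of 3 reads. The authors' factors leave unequal totals, 25001171 to 27985228 normalized counts per mouse in WT mice on NCD but 19222033 to 21373610 in WT mice on SSD. Setting all samples to equal totals moves the median diet difference over all genes, on the log2 scale, from 0.00 to 0.34 in WT mice and to 0.25 in Klrk1-/- mice, and the share of higher genes among those called from 62.0% to 89.6% and from 49.8% to 81.6%. Between genotypes on SSD the same scaling moves that median to -0.12 and the share from 33.3% to 15.95%, and quantile normalization of the WT diet comparison gives a share of 52.4%. Klrk1 itself was at 20.1 to 71.1 normalized counts in the 9 WT mice and at 0.97 to 8.71 in the 7 Klrk1-/- mice. In bulk liver, fewer cells of a type and less RNA per cell cannot be told apart.

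The promoters of 5 members are in the RefSeq table used (GRCm38.p6), and 4 of them are shown, those of Axin2 and Rnf43, which varied together among mice, and those of Glul and Oat, both pericentral enzymes, of which 1 was called by diet and the other was not. Each is the 250 bases before the start of transcription on the strand of the gene, at chr11:108920099-108920348 for Axin2 (plus strand), chr11:87662837-87663086 for Rnf43 (plus strand, the upstream of 2 starts), chr1:153899679-153899928 for Glul (plus strand) and chr7:132576399-132576648 for Oat (minus strand). Capitals mark CCAAT and GGGCGG, each searched on both strands.
Axin2: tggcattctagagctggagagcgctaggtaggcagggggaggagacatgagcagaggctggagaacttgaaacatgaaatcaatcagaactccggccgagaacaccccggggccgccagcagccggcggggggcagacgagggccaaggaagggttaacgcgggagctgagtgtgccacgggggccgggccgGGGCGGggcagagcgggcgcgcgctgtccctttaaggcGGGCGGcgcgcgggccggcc
Rnf43: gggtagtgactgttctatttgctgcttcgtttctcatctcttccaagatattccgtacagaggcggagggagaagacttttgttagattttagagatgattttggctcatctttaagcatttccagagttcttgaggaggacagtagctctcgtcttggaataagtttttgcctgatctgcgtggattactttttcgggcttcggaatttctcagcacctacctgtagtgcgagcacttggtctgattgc
Glul: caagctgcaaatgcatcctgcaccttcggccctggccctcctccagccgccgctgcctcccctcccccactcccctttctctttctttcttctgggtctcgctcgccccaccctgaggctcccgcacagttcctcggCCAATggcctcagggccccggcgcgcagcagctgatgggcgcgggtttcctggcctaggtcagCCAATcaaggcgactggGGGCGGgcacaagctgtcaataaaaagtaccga
Oat: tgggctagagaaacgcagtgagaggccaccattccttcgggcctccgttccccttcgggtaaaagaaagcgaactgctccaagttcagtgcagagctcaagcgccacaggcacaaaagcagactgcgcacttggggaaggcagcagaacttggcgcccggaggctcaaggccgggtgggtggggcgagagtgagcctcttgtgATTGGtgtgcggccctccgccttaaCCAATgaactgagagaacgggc

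CCAAT stood 113 and 50 bases before the start of Glul and 47 and 22 bases before that of Oat, where the first match reads on the other strand, and 33.8% of the 32851 mouse windows of this length hold it. GGGCGG, the core of the GC box, stood 33 bases before the start of Glul and 58 and 20 bases before that of Axin2, and 32.7% of all windows hold it. CTTTGA, the core bound by TCF and LEF factors, and TATAAA were not found on either strand in any of the 6 windows of the 5 members, Nkd1 and the second start of Rnf43 included, and are held by 13.8% and 12.4% of all windows. The Axin2 window was the richest in G and C of the 6, at 69.2% with 24 CG pairs, and the Rnf43 windows the poorest, at 44.4% and 45.2%.

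Differences between groups were fitted with limma on log2(normalized count + 1) over all genes with a mean of at least 10 and adjusted by Benjamini-Hochberg over all of them, and a call needed an adjusted p under 0.05 together with a fold beyond 1.5. A log2 fold change is given with its standard error (SE), and means with their SD. In WT mice, SSD lowered 4 of the 10 members (Oat, Rhbg, Lgr5 and Rnf43) and raised none, where 7.32% of 13091 genes were called lower and 11.9% higher. SSD in Klrk1-/- mice lowered 3 (Oat, Rhbg and Lgr5) against 6.60% of 12904 genes, and raised 2 (Tbx3 and Znrf3) against 6.54%. These counts depend on the scaling. With equal totals 2 members were lower (Oat and Rhbg) and 2 higher (Znrf3 and Rspo3) in WT mice. In Klrk1-/- mice 2 were then lower (Oat and Rhbg) and 4 higher (Axin2, Tbx3, Znrf3 and Rspo3). At that scaling 3491 of 13140 genes were called higher and 406 lower in WT mice, and 2124 of 12918 and 479 in Klrk1-/- mice. Quantile normalization called the same members as the main fit, 4 lower and 0 higher in WT mice, 3 lower and 2 higher in Klrk1-/- mice. Over all genes it called 1152 of 13091 higher and 1048 lower in WT mice, and 840 of 12904 and 826 in Klrk1-/- mice. On SSD, Klrk1-/- mice had more Tbx3 and Axin2 than WT mice, 2 members higher against 0.709% of 13116 genes, and none lower against 1.42%. On NCD, Lgr5 alone was called, lower in Klrk1-/- mice, against 2.87% of 12845 genes called lower and 2.92% called higher. No member passed the test of the diet by genotype interaction, in which 0.849% of 13068 genes were called, 34.2% of them upward and with equal totals 19.6%. In that fit 3 members (Rnf43, Tbx3 and Znrf3) had an unadjusted p under 0.05. For the interaction edgeR on the recovered reads called 0 members and 87 of 13068 genes. DESeq2 called 1 member, Rnf43, and 354 genes, where limma called 111 genes.

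**Figure D1:**
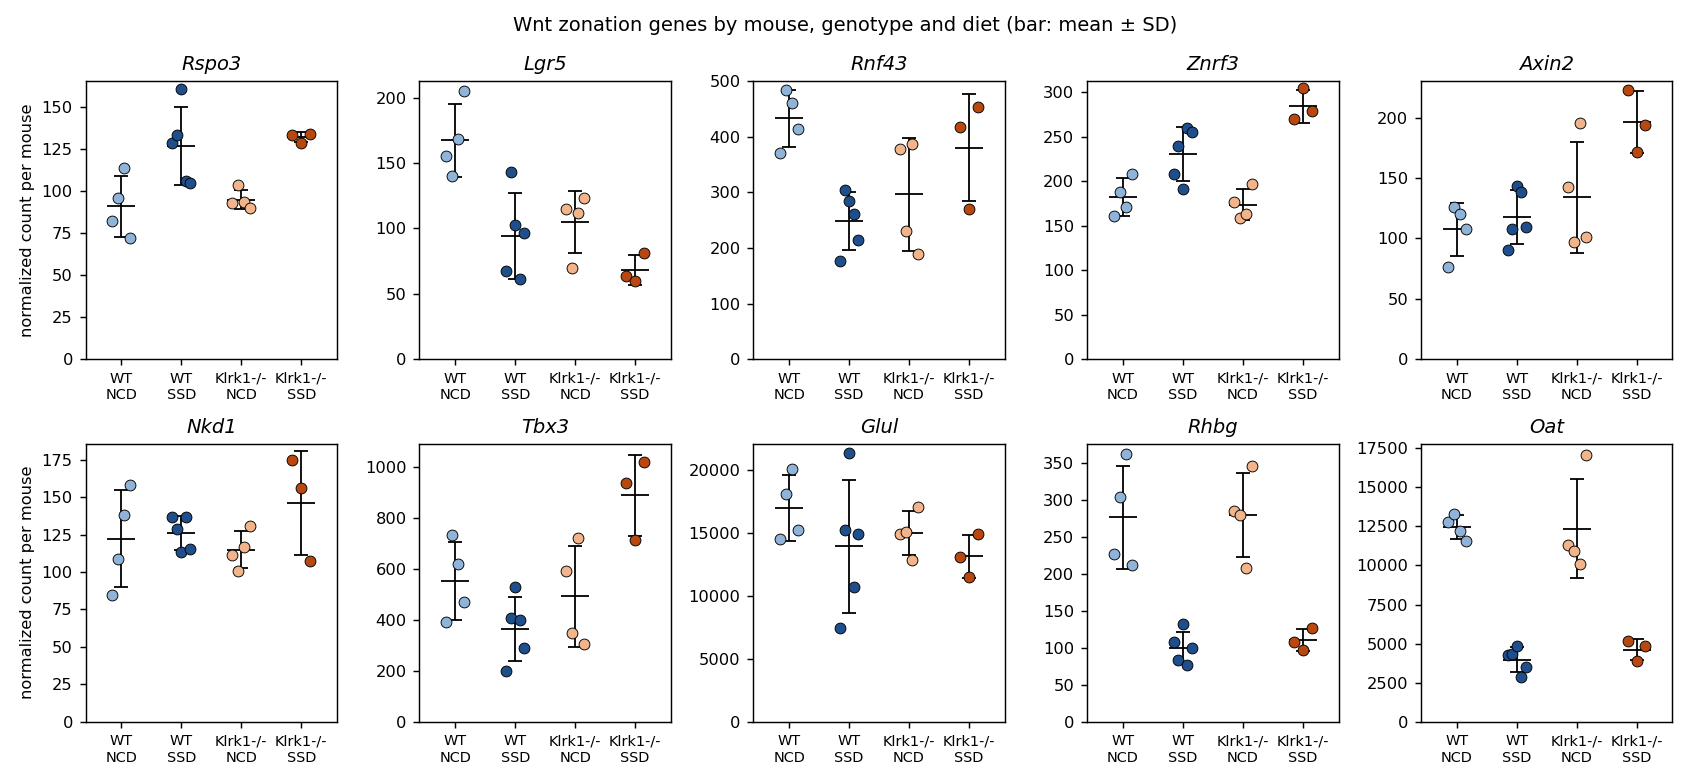
Normalized count per mouse (vertical axis, from 0) of each of the 10 genes in the 4 groups. Points are mice, horizontal marks are group means and bars are 1 SD. Oat and Rhbg are lower in every mouse on SSD than in any mouse on NCD, while the 3 Klrk1-/- mice on SSD hold Tbx3 values of 713 to 1021, above all 5 WT mice on SSD.

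Rspo3 encodes the R-spondin of the central vein, an amplifier of Wnt signalling made by endothelial and stellate cells rather than by hepatocytes (ENSMUSG00000019880, GRCm39 chromosome 10, 29328412 to 29411863). Its normalized counts were 82.0, 95.6, 113 and 71.7 in WT mice on NCD and 128, 133, 161, 106 and 105 in WT mice on SSD. They were 93.1, 103, 93.3 and 89.8 in Klrk1-/- mice on NCD and 133, 128 and 134 in Klrk1-/- mice on SSD. Each Klrk1-/- mouse on SSD was above each on NCD, whereas the WT groups overlapped. By limma the diet difference was 0.48 (SE 0.17, adjusted p = 0.0493) in WT mice and 0.47 (SE 0.12, adjusted p = 0.014) in Klrk1-/- mice on the log2 scale, a fold of 1.39 in each that was within the fold limit, so Rspo3 was not called. The interaction was -0.01 with a 95% interval of -0.47 to 0.46. With all samples set to equal totals Rspo3 was called higher in both, at 0.82 and 0.73. With quantile normalization it was called in neither, at 0.29 in WT mice and 0.46 in Klrk1-/- mice.

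Markers of stellate and endothelial cells were in part higher on SSD too. In WT mice SSD raised 3 of 8 stellate cell markers (Rgs5, Hand2 and Lrat) and 4 of 9 sinusoidal endothelium markers (Lyve1, Oit3, Pecam1 and Cdh5). In Klrk1-/- mice it raised 2 of 8 stellate markers (Rgs5 and Lrat), none of the 9 sinusoidal markers, and 3 of 5 markers of the central vein endothelium (Thbd, Cdh13 and Wnt2), while in WT mice Thbd rose and Wnt9b fell. With equal totals all 8 stellate and all 9 sinusoidal markers were called higher in WT mice, and 5 of 8 and 3 of 9 in Klrk1-/- mice. Of the 5 central vein markers, 3 were then called higher and 0 lower by diet in each genotype. The stellate markers summed to 4763 to 6166 normalized counts in WT mice on NCD and to 6173 to 14146 on SSD. The sums in Klrk1-/- mice were 5408 to 6653 on NCD and 7833 to 9141 on SSD, and no marker of these lists was at 0 in every mouse of a group. The sums for the sinusoidal markers were 4071 to 6888 and 6608 to 7956 in WT mice and 5850.1 to 7117 and 6469 to 7885 in Klrk1-/- mice. The central vein markers summed to 219 to 283 and 257 to 439 in WT mice and to 163 to 215 and 246 to 334 in Klrk1-/- mice. The part of these cells in the Rspo3 values was not tested.

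Lgr5, a receptor for R-spondins (ENSMUSG00000020140, chromosome 10, 115286216 to 115423685), was highest in WT mice on NCD, at 156, 139.9, 168 and 205 normalized counts. WT mice on SSD had 67.1, 143, 103, 61.3 and 96.3, and Klrk1-/- mice had 115, 69.7, 112 and 123 on NCD and 63.7, 59.4 and 81.4 on SSD. WT mice on NCD stood above all Klrk1-/- mice on NCD and, save for 1 SSD mouse at 143, above the WT mice on SSD. In order, the group means were 167 ± 27.8 (n = 4), 105 ± 23.9 in Klrk1-/- mice on NCD (n = 4), 94.1 ± 32.6 in WT mice on SSD (n = 5) and 68.2 ± 11.7 in Klrk1-/- mice on SSD (n = 3), with overlap between the neighbours among the last 3.

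By limma Lgr5 was lower on SSD than on NCD, with a log2 fold change of -0.88 (SE 0.23, adjusted p = 0.0118) in WT mice and of -0.59 (SE 0.21, adjusted p = 0.0495) in Klrk1-/- mice. On NCD it was lower in Klrk1-/- than in WT mice, at -0.69 (SE 0.19, adjusted p = 0.0309), with an exact two-sided permutation p of 0.0286, the smallest 4 against 4 mice can give. On SSD the genotypes differed by -0.40 with a 95% interval of -0.99 to 0.18, and the interaction was 0.28 (adjusted p = 0.696). The Klrk1-/- diet call was lost without any of the 7 mice except replicate 2 on NCD (adjusted p 0.0514 to 0.141). It was also lost with no minimum mean (0.0779), a minimum mean of 50 (0.0522), no variance trend (0.0762), a replicate block (0.0763) and 1 fit of all groups (0.0997), and came within the fold limit with a pseudocount of 10. The genotype call on NCD was lost without WT replicate 1, 3 or 5 or Klrk1-/- replicate 2 or 3 (0.0555 to 0.0693). That call was also lost without the variance trend, in 1 fit of all groups and with a fold limit of 2. Scaled to the same total, the diet differences were -0.53 in WT mice and -0.34 in Klrk1-/- mice, and neither was called. With quantile normalization they were -1.06 and -0.63, and both were called.

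Rnf43 and Znrf3 encode the paired ubiquitin ligases that clear Frizzled receptors. By diet in WT mice Rnf43 was called lower, while Znrf3 was not called, and the difference between them was not tested. Rnf43 (ENSMUSG00000034177, chromosome 11, 87553548 to 87626365) had 371, 485, 461 and 415 normalized counts in WT mice on NCD and 176, 304, 286, 262 and 214 on SSD. Klrk1-/- values were 378, 230.2, 388 and 189 on NCD and 418, 271 and 453 on SSD. All 5 WT mice on SSD were below all 4 on NCD, and the Klrk1-/- groups overlapped.

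SSD lowered Rnf43 in WT mice, with a log2 fold change of -0.82 (SE 0.16, limma adjusted p = 0.00221; exact permutation p = 0.0159, the smallest 5 against 4 mice can give), a fold of 0.566. In Klrk1-/- mice the difference was 0.39 with a 95% interval of -0.16 to 0.94. The interaction was 1.21 (SE 0.32, unadjusted p = 0.0015), and after adjustment over all genes its p was 0.084 by limma, 0.0894 by edgeR and 0.0203 by DESeq2. On SSD the genotypes differed by 0.61 (adjusted p = 0.132) and on NCD by -0.61 (adjusted p = 0.0662), neither called. The NCD difference passed without Klrk1-/- replicate 1 (adjusted p = 0.04) or replicate 3 (0.0422). Scaled to the same total, the difference in WT mice was -0.48, within the fold limit at an adjusted p of 0.023. With quantile normalization it was -0.84 (limma adjusted p = 0.00528) and was called.

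Znrf3 (ENSMUSG00000041961, chromosome 11, 5226324 to 5394847) had 160.4, 188, 171 and 209 normalized counts in WT mice on NCD and 208, 239, 191, 259 and 256 on SSD. Among Klrk1-/- mice it had 177, 158, 163 and 197 on NCD and 269, 305 and 279 on SSD, so the 3 Klrk1-/- mice on SSD lay above the 13 other mice. SSD raised it in Klrk1-/- mice by 0.71 (SE 0.11, limma adjusted p = 0.000837), a fold of 1.64. In WT mice the difference was 0.34 (SE 0.13, adjusted p = 0.0566), a fold of 1.26, which was called higher, at 0.68, only when samples were scaled to the same total. Between genotypes Znrf3 differed by 0.31 on SSD (SE 0.12, limma adjusted p = 0.178) and by -0.07 on NCD (adjusted p = 0.753), neither called. The interaction was 0.37 with an adjusted p of 0.274, so the diet effects were not shown to differ.

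Axin2, the scaffold of the beta-catenin destruction complex and a standard readout of Wnt signalling (ENSMUSG00000000142, chromosome 11, 108811175 to 108841609), had 76.0, 126, 119.9 and 108 normalized counts in WT mice on NCD and 90.3, 108, 144, 139 and 109 on SSD. The Klrk1-/- mice had 142, 97.1, 195 and 101 on NCD and 223, 172 and 194 on SSD. The 3 Klrk1-/- mice on SSD were above all WT mice of either diet. On SSD the genotype difference was 0.74 (SE 0.17, limma adjusted p = 0.0476), a fold of 1.67 with a 95% interval of 1.29 to 2.17, and the exact permutation p was 0.0357, the smallest 3 against 5 mice can give.

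That call lies at the threshold. The adjusted p was over 0.05 when any of the 8 mice other than WT replicate 1 was left out (0.0551 to 0.205). It was 0.0538 by edgeR and 0.00416 by DESeq2. Of 13116 genes in this comparison limma called 279, edgeR 229 and DESeq2 670. Over 22 alternatives the adjusted p of Axin2 ranged from 0.00416 to 0.205, while the difference stayed between 0.63 and 0.84. In WT mice the diet difference in Axin2 was 0.14 (95% interval -0.26 to 0.54), and in Klrk1-/- mice it was 0.60 (SE 0.22, adjusted p = 0.0589). It was called in Klrk1-/- mice without replicate 3 on NCD, the highest of its group (0.80, adjusted p = 0.0052), and with equal totals (0.85, adjusted p = 0.00635), under which the WT difference was 0.48 (adjusted p = 0.0534). The interaction was 0.46 (adjusted p = 0.455).

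Nkd1, which binds Dishevelled and dampens the pathway (ENSMUSG00000031661, chromosome 8, 89247982 to 89321512), ran from 84.4 to 158 normalized counts in WT mice on NCD and from 113 to 137 on SSD. Klrk1-/- values ran from 101 to 130.4 on NCD and from 107 to 175 on SSD. All 4 groups overlapped. Its differences were 0.08 (95% interval -0.30 to 0.46) by diet in WT mice, 0.32 (-0.06 to 0.69) by diet in Klrk1-/- mice, 0.18 by genotype on SSD and -0.06 on NCD, with limma adjusted p-values of 0.184 to 0.862.

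Tbx3, a transcription factor of pericentral hepatocytes (ENSMUSG00000018604, chromosome 5, 119808734 to 119822789), had 391, 735, 619 and 472 normalized counts in WT mice on NCD and 201, 408, 529, 402 and 288 on SSD. Klrk1-/- values were 593, 349.7, 723 and 305 on NCD and 938, 713 and 1021 on SSD. The Klrk1-/- mice on SSD were all above the WT mice on SSD, and overlapped those on NCD only through the mouse at 713. On SSD it was 2.53-fold higher in Klrk1-/- than in WT mice, with a 95% interval of 1.68 to 3.83 (log2 difference 1.34, SE 0.27, limma adjusted p = 0.0315; exact permutation p = 0.0357).

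SSD raised Tbx3 in Klrk1-/- mice by 0.93 (SE 0.26, limma adjusted p = 0.0188), while in WT mice the difference was -0.63 (SE 0.26, adjusted p = 0.0755). The exact permutation p in Klrk1-/- mice was 0.114, above the smallest these mice can give, 0.0571. The interaction was 1.56 (SE 0.42, unadjusted p = 0.00159, adjusted p = 0.0846). The genotype call was lost without WT replicate 2 or 4 on SSD or without any 1 of the Klrk1-/- mice on SSD (adjusted p 0.051 to 0.139), without a variance trend (0.0719) and with robust variances (0.0508). The diet call in Klrk1-/- mice was lost without replicate 1 or 3 on SSD (0.0687 and 0.0846), by DESeq2 (0.0577), without a variance trend (0.0634), with robust variances (0.0974) and with a fold limit of 2. In WT mice the difference passed, as a fall, without SSD replicate 3 (adjusted p = 0.033), while with equal totals it was -0.29 (adjusted p = 0.353). On NCD the genotypes differed by -0.22 (95% interval -0.78 to 0.34).

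**Figure D2:**
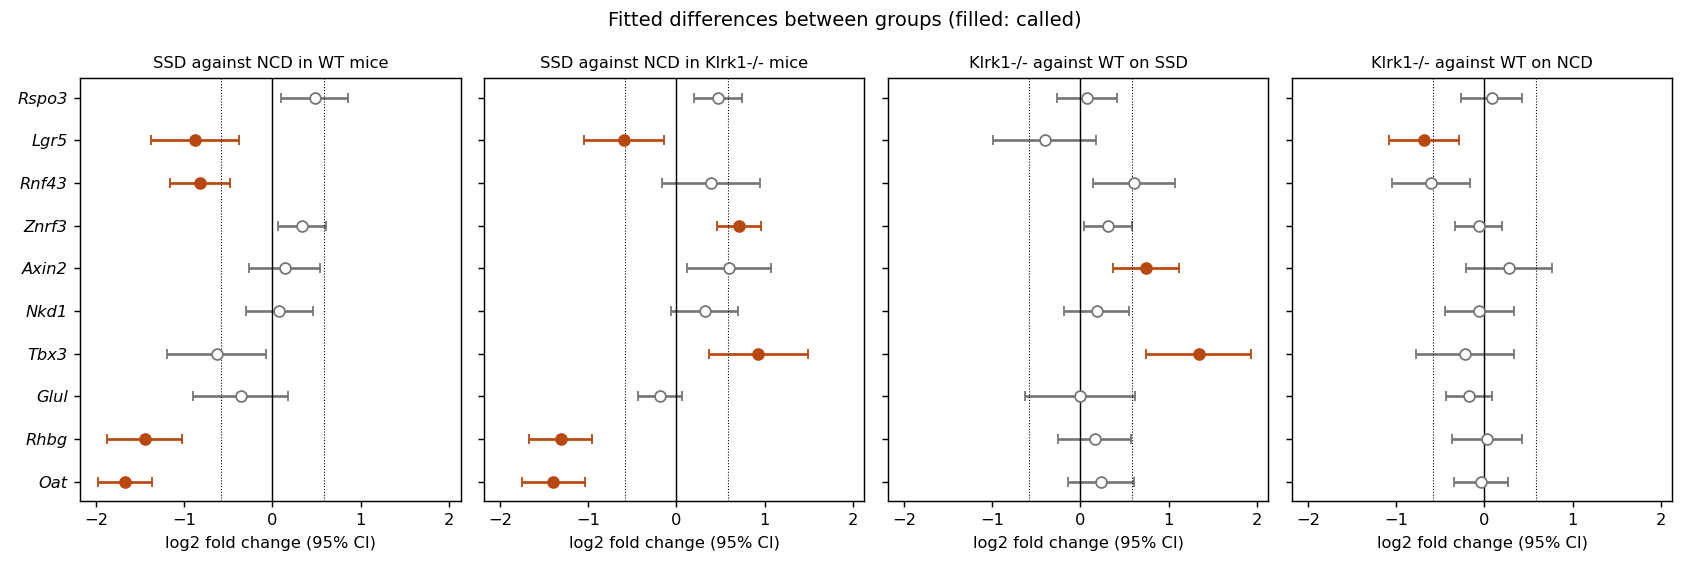
Fitted log2 fold change (horizontal axis) of each gene in the 4 comparisons, with 95% confidence intervals. Filled points were called, dotted lines mark the fold limit of 1.5, and the diet columns for both genotypes show Oat at -1.68 and -1.40 beside Tbx3 at -0.63 and 0.93.

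While Axin2 and Tbx3 differed between genotypes on SSD, markers of other cells differed too. Of 6 cycling cell markers, 4 (Ccnb1, Aurkb, Mki67 and Top2a) were lower in Klrk1-/- mice on SSD than in WT mice on SSD, and 1 of 6 macrophage markers (Cd68) was lower. With quantile normalization 2 of the 6 cycling markers were called lower. The cycling markers summed to 270.2 to 1853 normalized counts in WT mice on SSD and to 105 to 162 in Klrk1-/- mice on SSD, with no marker at 0 in every mouse of a group. None of the 7 hepatocyte markers was called, and they summed to 1553560 to 2057670 in WT mice and 2219850 to 2425420 in Klrk1-/- mice. The part of these cells in the Axin2 and Tbx3 differences was not tested.

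Glul encodes glutamine synthetase, which is confined in normal liver to the hepatocytes nearest the central vein (ENSMUSG00000026473, chromosome 1, 153775690 to 153785469). It had 14503, 18124, 20074 and 15208 normalized counts in WT mice on NCD and 7419, 15256, 21387, 10709 and 14949 on SSD, where both the lowest and the highest values of all 16 mice were found. Among Klrk1-/- mice it had 14926, 15062, 12862 and 17096 on NCD and 13119.8, 11481 and 14894 on SSD. The groups overlapped in all 4 comparisons. By limma the diet difference was -0.36 (95% interval -0.90 to 0.18) in WT mice and -0.19 (-0.44 to 0.06) in Klrk1-/- mice, and the genotype difference was 0.00 (-0.62 to 0.62) on SSD and -0.17 (-0.44 to 0.09) on NCD. Under other scalings no fall with diet was left, at -0.01 in WT mice and 0.07 in Klrk1-/- mice with equal totals, and at 0.00 and 0.06 with quantile normalization.

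Rhbg, an ammonium transporter of the pericentral hepatocyte membrane (ENSMUSG00000104445, chromosome 3, 88150181 to 88162016), had 227, 305, 362 and 213 normalized counts in WT mice on NCD and 108, 83.6, 132, 76.4 and 100.4 on SSD. The Klrk1-/- mice had 285, 280.0, 208 and 347 on NCD and 108, 97.2 and 127 on SSD. Every mouse on SSD was below every mouse on NCD. SSD lowered Rhbg, with log2 fold changes of -1.45 (SE 0.19, limma adjusted p = 0.000201) in WT mice and -1.32 (SE 0.17, adjusted p = 0.00015) in Klrk1-/- mice, folds of 0.366 and 0.402, and the interaction was 0.14 (95% interval -0.45 to 0.73). Gm38392, a gene on the same strand that overlaps Rhbg, had 239 ± 44.0 (n = 4) and 113 ± 16.1 (n = 5) normalized counts on NCD and SSD in WT mice, and 214 ± 53.2 (n = 4) and 122 ± 15.2 (n = 3) in Klrk1-/- mice. How reads in the shared stretch were counted is not given in the sources used here, so the level of Rhbg and the size of its fall are uncertain.

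Oat encodes ornithine aminotransferase, which links ornithine to glutamate and proline (ENSMUSG00000030934, chromosome 7, 132159207 to 132178127). It had 12779.7, 13312, 12218 and 11542 normalized counts in WT mice on NCD and 4266, 4364, 4876, 2834 and 3487 on SSD. Klrk1-/- values were 11328, 10919, 10103 and 17076 on NCD and 5141, 3894 and 4825 on SSD, so no mouse on SSD reached any mouse on NCD. SSD lowered Oat, with log2 fold changes of -1.68 (SE 0.14, limma adjusted p = 6.06e-06) in WT mice and -1.40 (SE 0.16, adjusted p = 8.4e-05) in Klrk1-/- mice, folds of 0.313 and 0.38. The interaction was 0.28 (95% interval -0.22 to 0.78), and between genotypes it differed by 0.24 on SSD and -0.04 on NCD, neither called. Oat lies within the bounds of Fgfr2 on the same strand in the annotation used here, and Fgfr2 was at 746 ± 102 and 686 ± 64.7 normalized counts in WT mice on NCD and SSD, a level far under that of Oat.

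Per kilobase of gene length, the members of WT mice on NCD fell into separate ranges. Glul and Oat had means of 13780.2 and 10018 normalized counts per kilobase, Rnf43, Tbx3 and Rhbg had 193, 177 and 143, and Lgr5, Axin2, Rspo3, Znrf3 and Nkd1 had 69.5, 63.2, 45.8, 44.5 and 42.7. In Klrk1-/- mice on SSD the means were 10686 for Glul, 3714 for Oat, 284 for Tbx3, 169.9 for Rnf43, 115 for Axin2 and 28.3 for Lgr5, the lowest of the 10.

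The members moved in both directions between groups. Their median log2 fold change by diet was -0.50 in WT mice and 0.36 in Klrk1-/- mice, beside 0.00 over all genes tested in both. It was 0.21 between genotypes on SSD, -0.06 on NCD and 0.28 for the interaction, again beside 0.00. With equal totals the diet medians were -0.15 and 0.61, beside the shifts of all genes given above. Groups did not overlap for 3 members by diet in WT mice (29.0% of all genes), for 4 by diet in Klrk1-/- mice (37.6%; there 3 against 4 mice cannot give an exact permutation p under 0.0571), for 3 by genotype on SSD (17.9%) and for 1 by genotype on NCD (19.3%).

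Within groups, Axin2, Rnf43 and Tbx3 varied together from mouse to mouse. After each group's mean was subtracted on the log2 scale, Rnf43 and Tbx3 correlated at r = 0.92 and rho = 0.93 over 16 mice (permutation of mice within groups, p = 6e-05 and 3e-05; adjusted over the 45 pairs of members, 0.0027 and 0.00135). For Axin2 and Tbx3 r was 0.89 and rho 0.85 (permutation p = 0.00015 and 0.00127; adjusted 0.00337 and 0.0286). For Axin2 and Rnf43 r was 0.79 and rho 0.71 (permutation p = 0.00317 and 0.0103; adjusted 0.0475 and 0.155). Without the 2 mice farthest from the median of the gene named first, r was 0.88, 0.88 and 0.77. In 27 of the 45 pairs r was above 0, and no other pair passed the adjustment by r. Klrk1-/- mice on NCD show the spread, with replicates 1 and 3 at 593 and 723 and replicates 2 and 4 at 349.7 and 305 for Tbx3, and at 142 and 195 against 97.1 and 101 for Axin2. Glul correlated with Axin2 at r = 0.27, rho = 0.16 (permutation p = 0.318 and 0.582, adjusted 0.698 and 0.924). With Rnf43 it had r = 0.35, rho = 0.20 (permutation p = 0.193 and 0.476, adjusted 0.619 and 0.857). For Glul and Tbx3 r was 0.50 and rho 0.29 (permutation p = 0.103 and 0.343, adjusted 0.462 and 0.851). The variation of Glul among mice was thus not shown to follow that of these 3 genes.

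**Figure D3:**
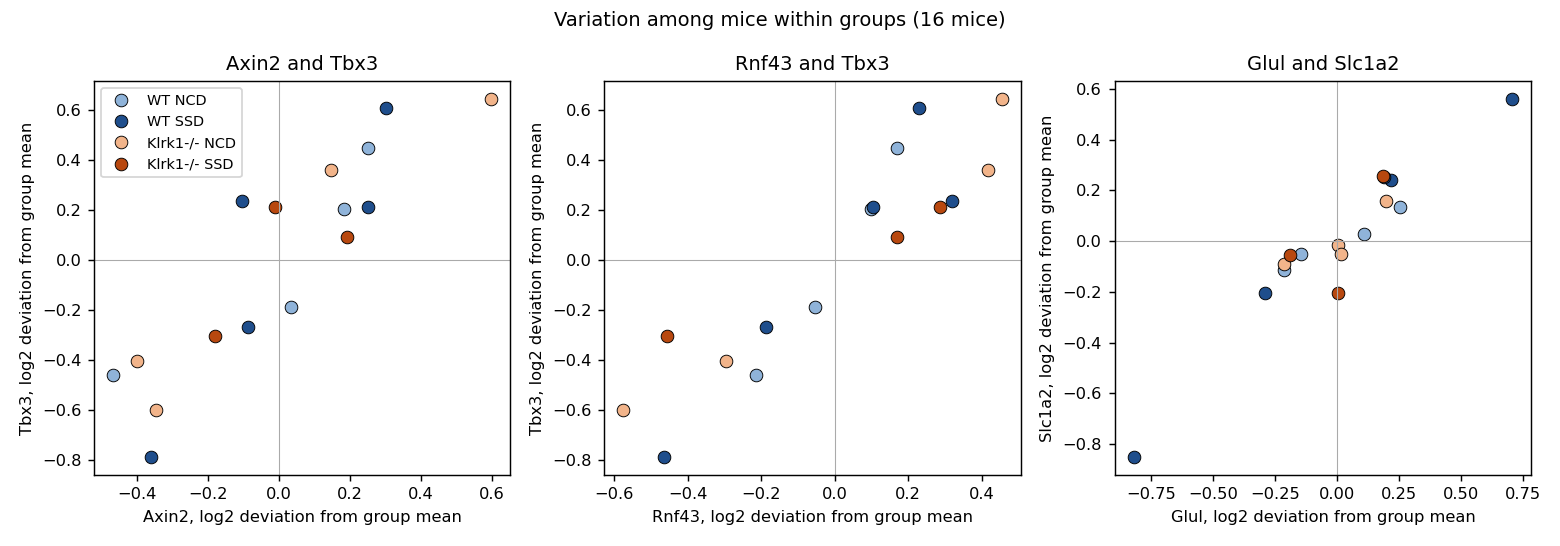
Deviation of each mouse from its group mean on the log2 scale, for Axin2 and Tbx3, Rnf43 and Tbx3, and Glul and Slc1a2 (16 points a panel, coloured by group). Points rise along the diagonal in all 3 panels (r = 0.89, 0.92 and 0.95), and in the last panel WT replicates 1 and 3 on SSD lie at the ends.

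Among 13067 genes, the 3 whose variation within groups was most like that of Glul were Slc1a2, a glutamate transporter of the same pericentral cells (r = 0.95), Pfkm, a phosphofructokinase (0.93), and Ido2, an enzyme of tryptophan breakdown (0.92). These are the top of a ranking over 16 mice and carry no test. Without WT replicates 1 and 3 on SSD, the lowest and highest in Glul, r was 0.84, 0.78 and 0.74. Slc1a2 had 1867, 2062, 2221 and 1952 normalized counts in WT mice on NCD and 769, 1639, 2045, 1204 and 1652 on SSD, and the lowest and the highest mouse of each of these groups were the same as for Glul. The 3 genes most like Axin2 were Proser2 (r = 0.93), Sall1 (0.90) and Proser1 (0.90), and r was 0.88, 0.83 and 0.84 without the 2 mice farthest in Axin2.

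Other genes of the pathway changed in small numbers, and standard errors of the log2 fold changes named from the lists that follow were between 0.08 and 0.56. Of 21 Wnt ligands and secretion genes, 8 passed the filter in both diet comparisons. In WT mice SSD raised Wnt9a (1.46, limma adjusted p = 0.0189) and Wls (0.64), which escorts Wnt proteins to the surface, and lowered Wnt9b (-0.95, adjusted p = 0.0462) and Wnt5b (-0.70). SSD raised Wnt9a (1.46) and Wnt2 (0.95, adjusted p = 0.00648) in Klrk1-/- mice. Wnt2 and Wnt9b are the ligands of the central vein and sinusoidal endothelium. Wnt9b was at 25.3, 25.2, 24.8 and 24.3 normalized counts in WT mice on NCD and at 5.98, 11.8, 19.99, 18.7 and 10.6 on SSD, without overlap. Wnt5a (-0.96) and Wnt5b (-0.67) were lower in Klrk1-/- mice on NCD. On SSD no ligand was called between genotypes, although Wnt5a was lower in all 3 Klrk1-/- mice than in any WT mouse (-1.20, 95% interval -1.93 to -0.47, adjusted p = 0.077). With equal totals neither Wnt9b nor Wnt5b was called by diet in WT mice, whereas Wnt2 (0.75) was called there, and Wnt4 and Wls in Klrk1-/- mice. With quantile normalization 0 of these genes were called higher by diet in WT mice, Wnt9a and Wls included, and 2 lower, and 2 were called higher in Klrk1-/- mice.

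Of 20 R-spondins, receptors and co-receptors, 11 were tested, and Rspo1, Rspo2 and Rspo4 were not among them. SSD lowered the receptor Fzd8 (-1.23, limma adjusted p = 1.26e-05) and the R-spondin receptor Lgr4 (-0.65) and raised Fzd6 (0.64) in WT mice. It raised Fzd4 (0.63) and lowered Ror1 (-0.97) in Klrk1-/- mice, and Fzd8 was higher in Klrk1-/- than in WT mice on SSD (0.60). Of 15 cytoplasmic and nuclear components tested, Tcf7 rose with diet in both genotypes (0.64 and 0.88) and Tcf7l1 in Klrk1-/- mice (0.64), with no other call in the 4 comparisons. With equal totals Lgr4 in WT mice and Fzd8 between genotypes were not called, while by diet Fzd1, Apc, Dvl2 and Tcf7l1 were called higher in WT mice, and Fzd1, Fzd7, Ryk and Axin1 in Klrk1-/- mice. With quantile normalization no receptor or cytoplasmic component was called higher by diet in WT mice, so that the Fzd6 and Tcf7 calls there were lost, and 3 receptors were called lower.

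Of the 8 tested inhibitors and feedback targets, Notum, which inactivates Wnt proteins and is a target of the pathway, was the 1 called between genotypes on SSD. Its normalized counts were 927, 915, 1077 and 1065 in WT mice on NCD, 819, 1064, 1054, 1202 and 1230.4 in WT mice on SSD, 886, 819, 1247 and 793 in Klrk1-/- mice on NCD, and 1939, 1876 and 1634 in Klrk1-/- mice on SSD. The 3 Klrk1-/- mice on SSD were above all other mice. Notum rose with diet in Klrk1-/- mice by 0.98 (SE 0.14, limma adjusted p = 0.000426) and was higher than in WT mice on SSD by 0.77 (adjusted p = 0.0185), with an interaction of 0.88 (SE 0.20, adjusted p = 0.0452) that fell to 0.79, not called, with equal totals. Ccnd1, a cell cycle target, rose with diet in both genotypes (1.44 and 0.93), as did Dkk3 (0.84 and 0.62), and on NCD Ccnd1 (-0.67) and Myc (-1.80) were lower in Klrk1-/- mice. With equal totals Frzb in WT mice (1.24) and Myc in Klrk1-/- mice (0.79) were also called higher by diet. With quantile normalization 1 of the list was called higher by diet in WT mice and 2 in Klrk1-/- mice.

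**Figure D4:**
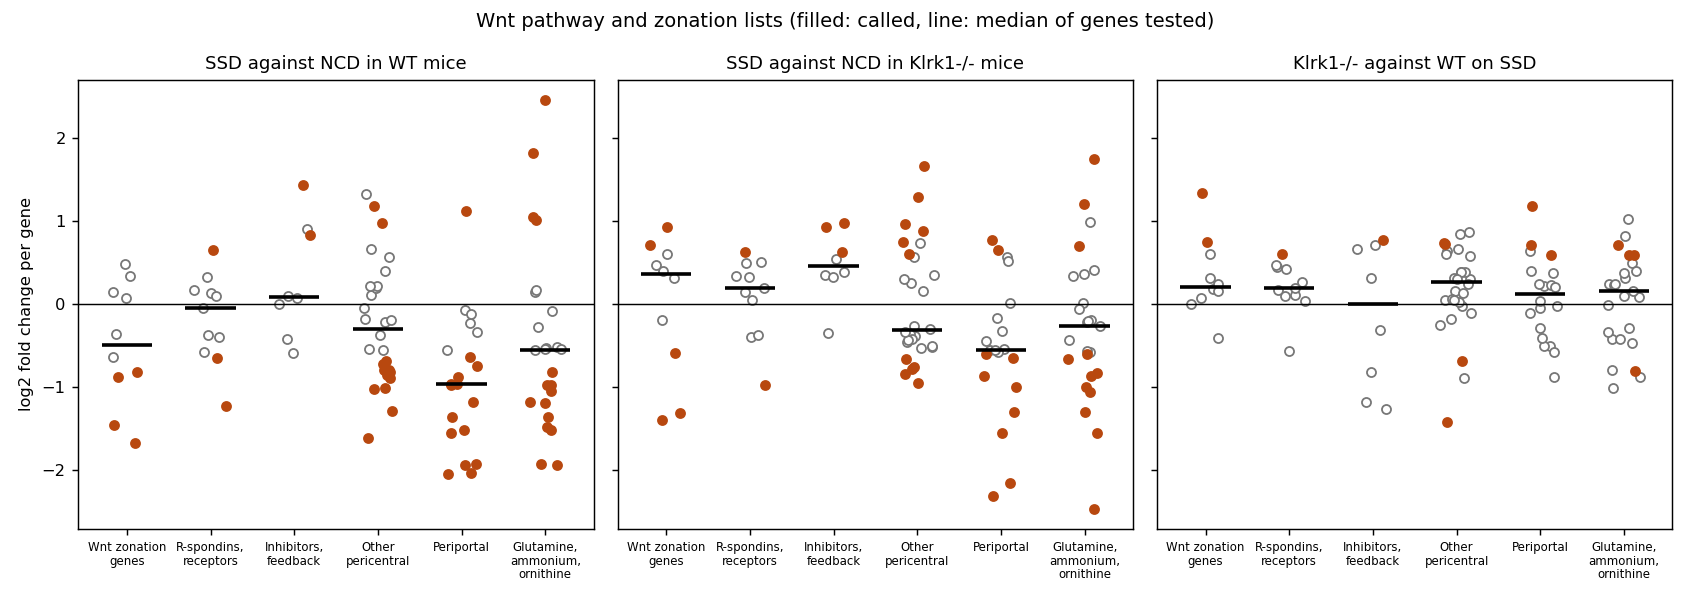
Fitted log2 fold change of every tested gene (points, filled where called; lines are medians) of the 10 genes and of 5 lists in 3 comparisons. By diet the periportal genes have the lowest medians (-0.96 in WT mice and -0.56 in Klrk1-/- mice), while the pericentral list splits into genes that rose and genes that fell. With equal totals its WT median moves from -0.30 to 0.05, while that over all genes moves from 0.00 to 0.34.

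The other pericentral hepatocyte genes went both ways. Of 28, SSD lowered 11 and raised 2 in WT mice, with a median of -0.30, and lowered 5 and raised 6 in Klrk1-/- mice, with a median of -0.32. In WT mice the largest falls were Cyp2c54 (-1.61), Cyp2c50 (-1.28) and Cyp1a2 (-1.03), all cytochromes P450, and Gstm1 (1.18) and Cyp2a5 (0.98) rose. Among Klrk1-/- mice Cyp2a5 (1.66), Gstm1 (1.29) and Gstm3 (0.96) rose most, and Cyp7a1 (-0.95), the rate-limiting enzyme of bile acid synthesis, Slc22a3 (-0.85) and Lhpp (-0.79) fell most. With equal totals 6 were higher and 3 lower in WT mice, with a median of 0.05, and in Klrk1-/- mice 9 were higher and 2 lower. That scaling moved the WT median over all genes from 0.00 to 0.34, with 3491 of 13140 genes called higher. The list's median in WT mice thus stayed below that of all genes. Between genotypes on SSD, Cyp2a5 (0.73) and Hpd (0.72) were higher in Klrk1-/- mice and Cyp7a1 (-1.42) and Ahr (-0.68) lower, and on NCD Cyp7a1 alone was lower (-1.49). With quantile normalization 0 were called higher and 2 lower on SSD, and by diet 4 were higher and 6 lower in WT mice.

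The periportal genes belong to hepatocytes at the opposite end of the lobule. In WT mice 14 of 20 fell with diet and 1, Hsd17b13, a lipid droplet protein, rose (1.12). The largest falls were Tat (-2.05), which breaks down tyrosine, Aldh1b1 (-2.03) and Gls2 (-1.94), the liver glutaminase. In Klrk1-/- mice 8 fell, led by Aldh1b1 (-2.31), Tat (-2.15) and Ass1 (-1.56), and Hsd17b13 (0.77) and G6pc (0.65) rose. With equal totals 11 fell and 1 rose in WT mice, and 6 fell and 4 rose in Klrk1-/- mice. With the authors' factors the medians over all genes tested were 0.00 in both comparisons. On SSD 3 were higher in Klrk1-/- than in WT mice, among them Hal (1.18) and Gls2 (0.71), and on NCD 6 of 20 were lower, led by G6pc (-1.49), Tat (-0.78) and Ctsc (-0.74). With equal totals 2 were higher and 1 lower on SSD, and 7 were lower on NCD.

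The genes that handle glutamine, ammonium and ornithine, the substrates and products of Glul, Rhbg and Oat, share several members with the periportal list. In WT mice 11 of 24 fell, among them Gls2 (-1.94) and Ass1 (-1.92), an enzyme of the urea cycle. Aldh18a1 (2.45) and Pycr1 (1.82), which make proline, and the transporter Slc38a1 (1.05) rose most among the 4 that rose. In Klrk1-/- mice 9 of 25 fell, led by the channel Aqp8 (-2.46), Ass1 (-1.56) and Gls2 (-1.30), and Aldh18a1 (1.75), Pycr1 (1.20) and Slc7a5 (0.69) rose. With equal totals 10 were lower and 4 higher in WT mice, while 6 were lower and 6 higher in Klrk1-/- mice. Between genotypes, Aqp8 was higher (0.68) and Slc38a2 (-0.71) and Odc1 (-0.93) lower in Klrk1-/- mice on NCD. On SSD 3 were higher, among them Gls2 (0.71) and the glutamine transporter Slc38a3 (0.59), and Aqp8 was lower (-0.81), while with equal totals and with quantile normalization 1 was higher and 1 lower. Glul stood apart from Rhbg and Oat in these comparisons in that it was not called in any.

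Markers of other cell types moved with diet as well. Of 7 hepatocyte markers 1 fell in WT mice (Serpina1c) and 2 in Klrk1-/- mice (Serpina1c and Apoa1), and their sums ran from 2424930 to 2840290 on NCD and from 1553560 to 2057670 on SSD in WT mice, and from 2470730 to 3352400 and from 2219850 to 2425420 in Klrk1-/- mice, with none at 0 in any group. With equal totals and with quantile normalization no hepatocyte marker was called by diet in WT mice. In WT mice all 6 cycling cell markers and 3 of 6 macrophage markers rose, the latter 6 of 6 with equal totals and 2 of 6 with quantile normalization. The cycling markers summed to 144 to 182 normalized counts on NCD and 270.2 to 1853 on SSD, and the macrophage markers to 4381 to 4640.4 and 6236 to 13531. In Klrk1-/- mice the cycling markers summed to 153 to 239 on NCD and 105 to 162 on SSD. Their macrophage markers summed to 3853 to 4668 and 4763 to 6107. With equal totals 0 of 5 cycling and 2 of 6 macrophage markers were called higher by diet in Klrk1-/- mice. The part of cell composition in the falls of Oat, Rhbg, Lgr5 and Rnf43 was not tested. With equal totals, under which no hepatocyte marker was called, Oat was at -1.33 and Rhbg at -1.11 in WT mice, both called, whereas Lgr5 (-0.53) and Rnf43 (-0.48) were not. With quantile normalization no hepatocyte marker was called in WT mice either. There Oat (-1.36), Rhbg (-1.57), Lgr5 (-1.06) and Rnf43 (-0.84) were all called.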

How the data were processed

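Liver RNA of 16 mice was sequenced as single reads of 100 bases, with 1 library per mouse, and groups were taken from the labels. The methods name a total RNA kit and the labels an mRNA kit. The authors checked reads with FastQC, aligned them with STAR to GRCm39, counted them with FeatureCounts on GENCODE annotation and deposited 1 table of normalized counts per gene, a signal scaled by a factor per sample, beside gene widths. How the factors were computed and whether counting used strand are not given in the sources used here. Dividing the deposited signal by the worth of 1 read gave whole reads for all values within 0.01, so depth is known.

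Normalized counts were compared with limma 3.58.1 (R 4.3.3) on log2(value + 1) with a variance trend, over genes with a mean of at least 10 in the groups compared, adjusted by Benjamini-Hochberg, and a call needed an adjusted p under 0.05 as well as a fold beyond 1.5. The pseudocount understates changes of low genes. The interaction was fitted over all 4 groups. The method was tested on simulated data with 1 spread for all genes and with planted changes larger than most differences of the members. Smaller differences were not covered by that test. The alternatives were other pseudocounts, filters, variances, scalings and fold limits, edgeR 4.0.16 and DESeq2 1.42.0 on the recovered reads, a replicate block, 1 fit of all groups and leaving out each mouse. Single genes were also tested with a two-sided exact permutation test (scipy 1.17.1), and correlations with 100000 permutations. All 10 members were named, with up to 3 called genes per list and direction and the 3 genes most like Glul and Axin2. Cell markers and genes called under another scaling were named beyond this rule, after their values were seen. A gene that this rule would name is not reported here. The members and lists were chosen with earlier results of these data known.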

Additional observations from a re-analysis of the deposited data

Results flagged for a closer look

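Lgr5 was low in replicate 2 of the Klrk1-/- mice on NCD, at 69.7 normalized counts against 112 to 123 in the other mice of its group. On the log2(normalized count + 1) scale its gap to the nearest mouse was 0.834 of the range of the group, above Dixon's limit, whereas on the linear counts the share stayed under that limit. This was 1 of 30 groups tested in this way, of which chance would flag about 1 in 20.

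The effect of diet differed between genotypes, by the limma interaction term with Benjamini-Hochberg adjustment, for 5 genes of the pathway and hepatocyte lists. On the log2 scale the difference of the diet effects, Klrk1-/- minus WT, was 0.88 for Notum, a Wnt inhibitor (adjusted p = 0.0452). It was 0.64 for Gls2, the liver glutaminase (adjusted p = 0.0176), 1.11 for Hal, histidine ammonia lyase (adjusted p = 0.0107), and 0.62 for Nags, which makes the activator of the urea cycle (adjusted p = 0.0466). It was -1.49 for the channel Aqp8 (adjusted p = 0.00193). With equal totals in all samples, Notum, Gls2 and Nags were not called. Markers of other cells passed the same test, all with a negative difference, at -1.57 for the macrophage marker Cd68 (adjusted p = 0.0107) and at -4.61, -3.36 and -2.37 for the cycling cell markers Ccnb1, Mki67 and Top2a (adjusted p 0.0303, 0.0277 and 0.0452). Their part in the differences of the 5 genes was not tested.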

How the results depend on the processing

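Of the single results for the 10 members over all comparisons and alternatives, 1100 kept their status as called or not called, 57 lost a call and 13 gained one. No called value changed sign, and 35 of the values that were not called did. The falls of Oat and Rhbg with diet were called under every alternative in both genotypes. None of these alternatives dealt with the overlap of Rhbg and Gm38392. A fold limit of 2 left 2 members called by diet in WT mice and 2 in Klrk1-/- mice, 1 between genotypes on SSD and 0 on NCD. Over all genes it left 1179, 704, 151 and 219 calls in the same order. Without the variance trend 3 were called by diet in Klrk1-/- mice, 0 between genotypes on SSD and 0 on NCD, where 1684, 156 and 508 genes were called. Between genotypes on SSD 1 member was called with a pseudocount of 10, no minimum mean, a minimum mean of 50 or robust variances. Over all genes these settings gave 212, 270, 198 and 258 calls, beside 279 in the main fit. There 1 member was also called with equal totals, quantile normalization, edgeR or 1 fit of all groups. These gave 326, 211, 229 and 551 calls over all genes. On NCD 0 members and 753 genes were called in 1 fit of all groups. DESeq2 called 1 member and 354 genes for the interaction. Leaving out 1 mouse gave 4 to 5 members by diet in WT mice, 3 to 5 in Klrk1-/- mice, 0 to 2 between genotypes on SSD, 0 to 2 on NCD and 0 for the interaction. Over all genes it gave 2071 to 2707 calls by diet in WT mice and 1417 to 1827 in Klrk1-/- mice. Between genotypes it gave 45 to 447 on SSD, beside 279 with all mice, and 425 to 972 on NCD. For the interaction it gave 37 to 185. With the replicate number as a block 5 members were called by diet in WT mice, 4 in Klrk1-/- mice, 1 between genotypes on SSD, 1 on NCD and 0 for the interaction. Over all genes that block gave 1962, 1686, 595, 1129 and 51 calls in the same order, beside 2522, 1696, 279, 744 and 111 in the main fit. The deviations of mice of the same number correlated at -0.13 to 0.25. Mice of different numbers were not compared in this way, so whether the numbers pair the mice is not known. The causes of these changes were not tested. The lowest member had 56 reads in a mouse, above the floor of 3, so no member was limited to a bound.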
